A study of Mus musculus with 8 samples.

Results

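The guanylate-binding protein genes Gbp2 to Gbp11 are described here in MC38 cells, a murine colon adenocarcinoma line, with and without deletion of DENR and with and without interferon gamma (IFNγ). Members were the features whose gene name was Gbp2, Gbp3, Gbp4, Gbp5, Gbp6, Gbp7, Gbp8, Gbp9, Gbp10 or Gbp11, which made 10 of the 23998 features listed in the tables. No measured value was used to choose among these names, although the family was taken up with earlier results of these data known. The study sequenced mRNA from 8 samples in 4 groups of 2, all of the same cell line. Control (wild type) cells and DENR KO cells, made with Cas9 and a guide RNA, were each kept untreated or given IFNγ at 20 ng/ml for 4 h. DENR is a protein that, with its partner MCTS1, lets ribosomes start again after a short upstream reading frame. One table held the IFNγ-treated samples and another the untreated samples, and each had been normalized on its own. Nothing in the labels says whether the samples of a group came from separate cultures or whether the DENR KO samples share a guide. The p-values therefore speak only of these samples. They draw on variance shared across features as well as on the spread within each group of 2.

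Guanylate-binding proteins are large GTPases of the dynamin superfamily that cells make in quantity after IFNγ. They gather on the vacuoles of intracellular parasites and on bacteria in the cytosol, help to break these open, and pass bacterial products to inflammasomes. Their genes are switched on when IFNγ receptors activate the kinases JAK1 and JAK2. Promoters that answer to IFNγ often hold GAS elements and ISRE elements, and factors such as IRF1 bind the latter.

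The genes lay in 2 clusters in GRCm38 coordinates, which the tables carry although the labels name mm9. The cluster on chromosome 3 spanned 144 kb on the plus strand and held 4 members, Gbp5 (chr3:142493978-142522344), Gbp7 (chr3:142530342-142550149), Gbp3 (chr3:142560026-142573209) and Gbp2 (chr3:142620602-142638008). The cluster on chromosome 5 spanned 332 kb on the minus strand and held 6 members, Gbp8 (chr5:105014150-105139540), Gbp9 (chr5:105077630-105139539), Gbp4 (chr5:105115767-105139586), Gbp10 (chr5:105215699-105239533), Gbp6 (chr5:105270702-105293698) and Gbp11 (chr5:105323042-105346472). The authors' gene annotation lists Gbp11 as a polymorphic pseudogene and the other members as protein coding. The length given for each member equals the union of its GENCODE exons.

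Near-identical sequence limits what can be said of Gbp6 and Gbp10. Of all 100-base stretches of their transcripts, 64.5% for Gbp6 and 73.5% for Gbp10 also occurred in transcripts of another gene, mostly of each other and of Gm43302, a gene model whose exons overlap theirs. How the authors' counting divided such reads is not given in the sources used here, so the counts of both genes are uncertain. The share was 10.01% for Gbp7, most of it with the processed pseudogene Gm43802, and at most 5.13% for each of the other 7 members. The exons of Gbp4, Gbp8 and Gbp9 overlap by about 60 bases on the same strand.

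RefSeq promoters on GRCm38.p6, from 250 bases before to 50 bases after a start, were at hand for 4 members, Gbp2, Gbp3 (with 2 starts), Gbp5 and Gbp7. They were searched on both strands for the letters of the GAS element, TTCNNNGAA, and of the ISRE, which is GAAA followed after any 2 bases by GAAA again. Matches are shown because such letters are known from IFNγ-responsive promoters, and IRF1 reads those of the ISRE. The sequences run 5′ to 3′ on the plus strand, which is the strand of these genes, and capitals mark the matches. On this strand every ISRE match reads as its reverse complement, from TTTC to TTTC. The windows are chr3:142620594-142620623 for Gbp2, chr3:142559989-142560018 for the first Gbp3 start, chr3:142496684-142496707, chr3:142496759-142496788 and chr3:142496872-142496900 for Gbp5, and chr3:142530215-142530307 for Gbp7.
Gbp2 ISRE: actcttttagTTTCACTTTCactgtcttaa
Gbp3 overlapping ISRE pair: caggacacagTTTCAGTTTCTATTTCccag
Gbp5 far GAS: gcaacTTCTGGGAAattagttcag
Gbp5 ISRE: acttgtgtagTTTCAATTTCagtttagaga
Gbp5 near GAS: tggccgttatTTCTCAGAAccaagcacag
Gbp7 GAS, GAS and ISRE: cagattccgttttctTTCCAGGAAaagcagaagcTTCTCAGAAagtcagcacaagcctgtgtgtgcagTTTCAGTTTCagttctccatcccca

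The ISRE letters began 59 bases before the RefSeq start of Gbp2, 45 and 39 bases before the first start of Gbp3, 165 bases before that of Gbp5 and 53 bases before that of Gbp7. GENCODE places the first base of Gbp2 inside the window shown. It starts Gbp5 at chr3:142493978, so every Gbp5 window lies inside the GENCODE gene and upstream only of the RefSeq start. The GAS letters began 245 and 52 bases before the start of Gbp5 and 106 and 87 bases before the start of Gbp7. The second Gbp3 promoter held neither set of letters. Across all 32851 RefSeq promoters of the same length, 8.30% held the GAS letters, 3.44% held the ISRE letters and 0.454% held both, as those of Gbp5 and Gbp7 did. These are matches of letters and not measured binding.

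The samples were of even depth, with 17369020 to 18403790 reads on genes, and the 10 most abundant genes took 4.10 to 4.45% of them. The values are normalized counts, the reads on a gene divided by a size factor of the sample that ran from 0.976 to 1.02. Denr, the targeted gene, had 1438 and 1401 normalized counts in control cells and 946 and 957 in DENR KO cells with IFNγ, and 1448 and 1297 against 943 and 916 untreated. Its remaining level was 67.0% with IFNγ (log2 difference −0.58, SE 0.071, adjusted p = 8.2e-06, limma) and 67.7% untreated (−0.56, SE 0.078, adjusted p = 1.1e-04), and whether these transcripts carry the edit was not tested. Of 8 epithelial markers, 4 or 5 were listed in a table, and their summed level was only 12.7 to 24.6 normalized counts in a sample, so defining markers of a carcinoma such as Epcam were absent or nearly so in these cells. Of 8 macrophage markers, 5 or 6 were listed, and their sum was 402 to 456 in control and 465 to 478 in DENR KO cells with IFNγ, and 515 to 534 and 529 to 571 untreated. Nearly all of it was Cd14 and Cd68, while Ptprc, Adgre1, Csf1r and Itgam were at or near 0 or had no row, and its part in the differences of the members was not tested. The 6 markers of T, B and endothelial cells came to 15.6 to 31.2 in every sample. With IFNγ limma tested 0 epithelial markers, 2 macrophage markers and 1 T, B or endothelial marker. Untreated it tested 1, 2 and 2. Markers under the filter or without a row were not compared by limma. Of the markers with a p-value in limma, edgeR or DESeq2, none was called different between genotypes in either table. None of these had an unadjusted p under 0.05. Fewer cells of a type and less RNA per cell cannot be told apart in such bulk samples.

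Untreated control cells held little RNA of any member, and IFNγ-treated control cells held a great deal. All members together took 0.449% (95% Wilson interval 0.446 to 0.452) and 0.462% (0.459 to 0.465) of the reads in the control samples with IFNγ. In untreated control samples they took 0.00236% (0.00215 to 0.00260) and 0.00235% (0.00213 to 0.00259). These intervals, like the counting intervals given further on, cover counting error only.

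Levels of different genes were compared per kilobase of exon. In control cells with IFNγ, Gbp2 stood highest at 15262 and 16172 normalized counts per kb, ahead of Gbp3 at 2554 and 2558 and Gbp7 at 2166 and 2264. Next came Gbp4 at 1197 and 1184, Gbp5 at 884 and 835, Gbp9 at 851 and 827 and Gbp6 at 241 and 272. The lowest were Gbp8 at 55.1 and 50.9, Gbp10 at 45.8 and 49.9 and Gbp11 at 1.52 and 4.86. Gbp5 and Gbp9 overlapped in this order, and the samples of every other pair of neighbours were apart.

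Untreated control cells had another order. Gbp2 again led at 67.2 and 69.8 normalized counts per kb, followed by Gbp7 at 21.3 and 20.2, Gbp9 at 13.2 and 12.2 and Gbp3 at 10.2 and 12.5. Gbp4 had 2.28 and 1.91 and Gbp5 2.12 and 0.923, while Gbp8 and Gbp6 were below 1. Gbp9 overlapped with Gbp3, Gbp4 with Gbp5, and Gbp8 with Gbp6. The untreated table has no row for Gbp10 and Gbp11, and no row of that table is at 0 in all samples, so no untreated level of these genes is given.

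**Figure D1:**
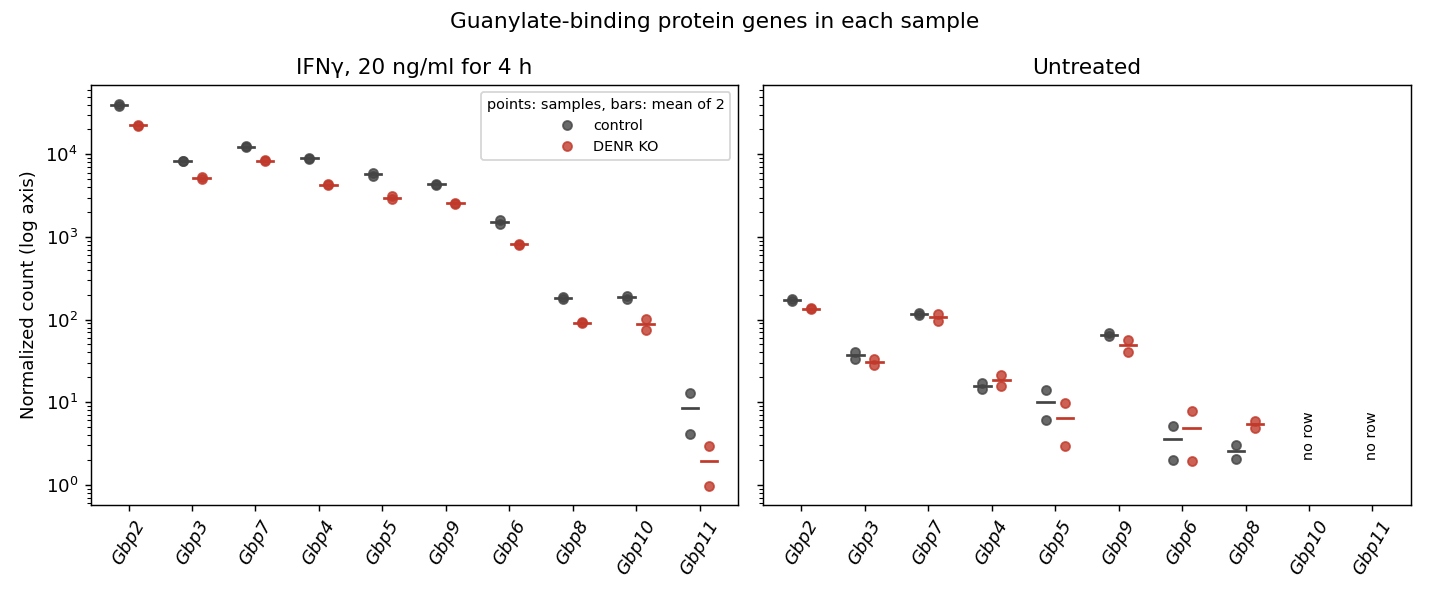
Normalized counts on a log axis of the 10 guanylate-binding protein genes, ordered by control level per kb with IFNγ, in each of 2 control (grey) and 2 DENR KO (red) samples, with IFNγ on the left and untreated on the right. Points are samples and bars are means of 2; with IFNγ every pair of red points lies below its grey pair, while untreated most pairs overlap.

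With IFNγ, DENR KO cells held less RNA of the 9 members that could be tested at the filter used, all but Gbp11. Relative to control cells the 9 tested members stood between 47.3% (Gbp10) and 67.5% (Gbp7). All 9 tested members were called lower (adjusted p under 0.05 and a log2 difference beyond 0.5), against 1.03% of the 13928 features tested that were called lower and 0.517% called higher. Their median log2 difference was −0.90, against −0.00036 over all features tested. In all 9 tested members both DENR KO samples were below both control samples, which was so for 20.8% of all features tested. Gbp11, under the filter, showed the same order. Differences are on the log2(value + 1) scale, with limma's moderated test over all features and Benjamini-Hochberg adjustment.

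Gbp2 is an isoprenylated member that coats pathogen vacuoles and gave the most reads of the family. Its normalized counts were 38398 and 40688 in control and 22286 and 22454 in DENR KO cells. The groups did not overlap and lay far apart compared with the spread within each. The log2 difference was −0.82 (SE 0.046, adjusted p = 1.8e-11).

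Gbp5 is the other isoprenylated member here and is known for its part in inflammasome activation. It had 5868 and 5543 normalized counts in control and 3094 and 2905 in DENR KO cells. The DENR KO samples were at 52.6% of the control mean, with no overlap. The log2 difference was −0.93 (SE 0.059, adjusted p = 2.2e-10).

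Gbp7, which has been tied to the assembly of the NADPH oxidase on phagosomes, kept the most of its level. It had 12160 and 12710 normalized counts in control and 8198 and 8580 in DENR KO cells. All DENR KO values were below the control values, by a log2 difference of −0.57 (SE 0.052, adjusted p = 7.2e-08).

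Gbp3, the remaining gene of the chromosome 3 cluster, had 8337 and 8350 normalized counts in control and 4982 and 5268 in DENR KO cells. The control samples were almost equal and the DENR KO samples stood at 61.4% of them. The log2 difference was −0.70 (SE 0.054, adjusted p = 4.7e-09).

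On chromosome 5, Gbp4 had 8970 and 8871 normalized counts in control and 4259 and 4322 in DENR KO cells. It fell to 48.1%, with very little spread in either group. The log2 difference of −1.06 (SE 0.053, adjusted p = 3.5e-12) gave Gbp4 the smallest adjusted p of the members.

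Gbp9, a neighbour of Gbp4, had 4401 and 4277 normalized counts in control and 2527 and 2605 in DENR KO cells. The groups were apart, with a log2 difference of −0.76 (SE 0.059, adjusted p = 4.7e-09). Gbp6 had 1437 and 1621 normalized counts in control and 799 and 831 in DENR KO cells. Its log2 difference was −0.90 (SE 0.077, adjusted p = 2.3e-08), with the uncertainty about shared reads given above.

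Gbp8 and Gbp10, far less abundant, were also called lower, with wider errors. Gbp8 had 190 and 175 normalized counts in control and 90.5 and 92.8 in DENR KO cells (log2 difference −0.98, SE 0.16, adjusted p = 4.1e-04). Gbp10 had 177 and 193 in control and 73.8 and 102 in DENR KO cells (log2 difference −1.09, SE 0.18, adjusted p = 3.8e-04). Gbp10 shares most of its sequence with Gbp6 and is not an independent count of it. Gbp11 had 4.10 and 13.1 normalized counts in control and 2.95 and 0.977 in DENR KO cells, which is 4 and 13 reads against 3 and 1. Its mean was under the filter of 10, and without that filter limma gave a log2 difference of −1.60 with an adjusted p of 0.42.

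**Figure D2:**
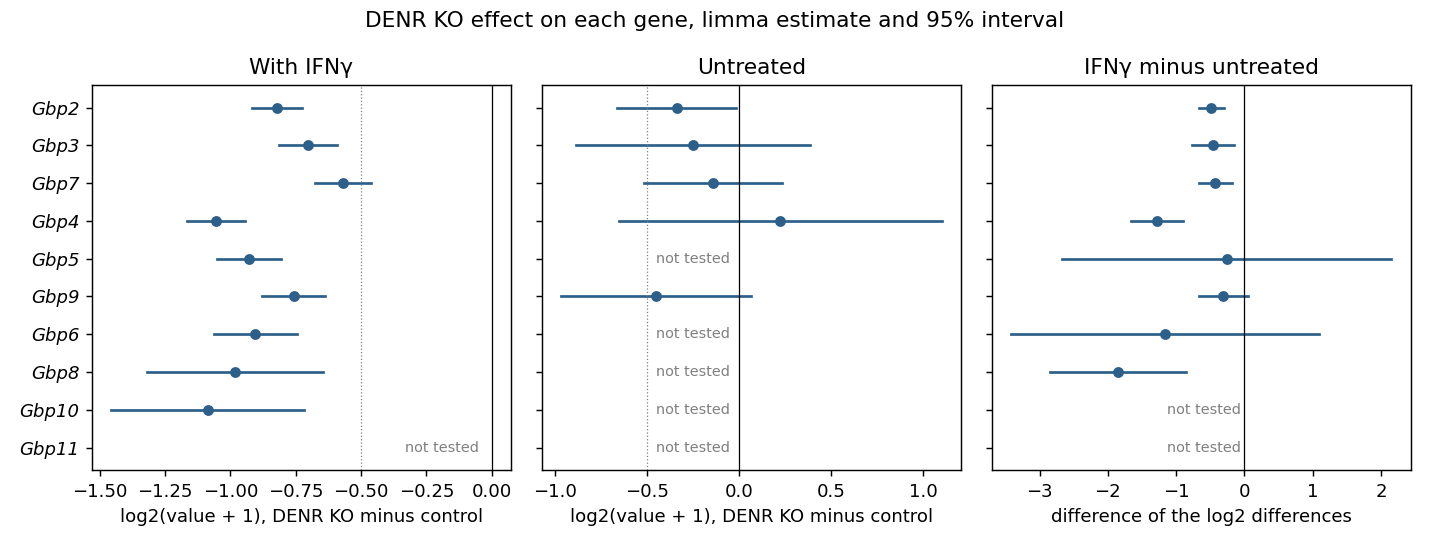
DENR KO minus control on the log2(value + 1) scale for each gene with IFNγ (left) and untreated (middle), and the difference between these differences (right), as limma estimates (points) with 95% intervals (lines); dotted lines mark −0.5. With IFNγ the 9 tested genes lie from −1.09 to −0.57, while untreated the estimates run from −0.45 to 0.22 and 4 of 5 intervals include 0.

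The clusters did not separate by the size of the difference. The 4 chromosome 3 members ranged from −0.93 to −0.57 and the 5 tested chromosome 5 members from −1.09 to −0.76. Among the 143 features called lower, ordered from the largest fall, Gbp10 ranked 23, Gbp4 27, Gbp8 32, Gbp5 40, Gbp6 45, Gbp2 55, Gbp9 71, Gbp3 85 and Gbp7 122. Ordered by p-value, Gbp4 ranked 5, Gbp2 8 and Gbp5 10.

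**Figure D3:**
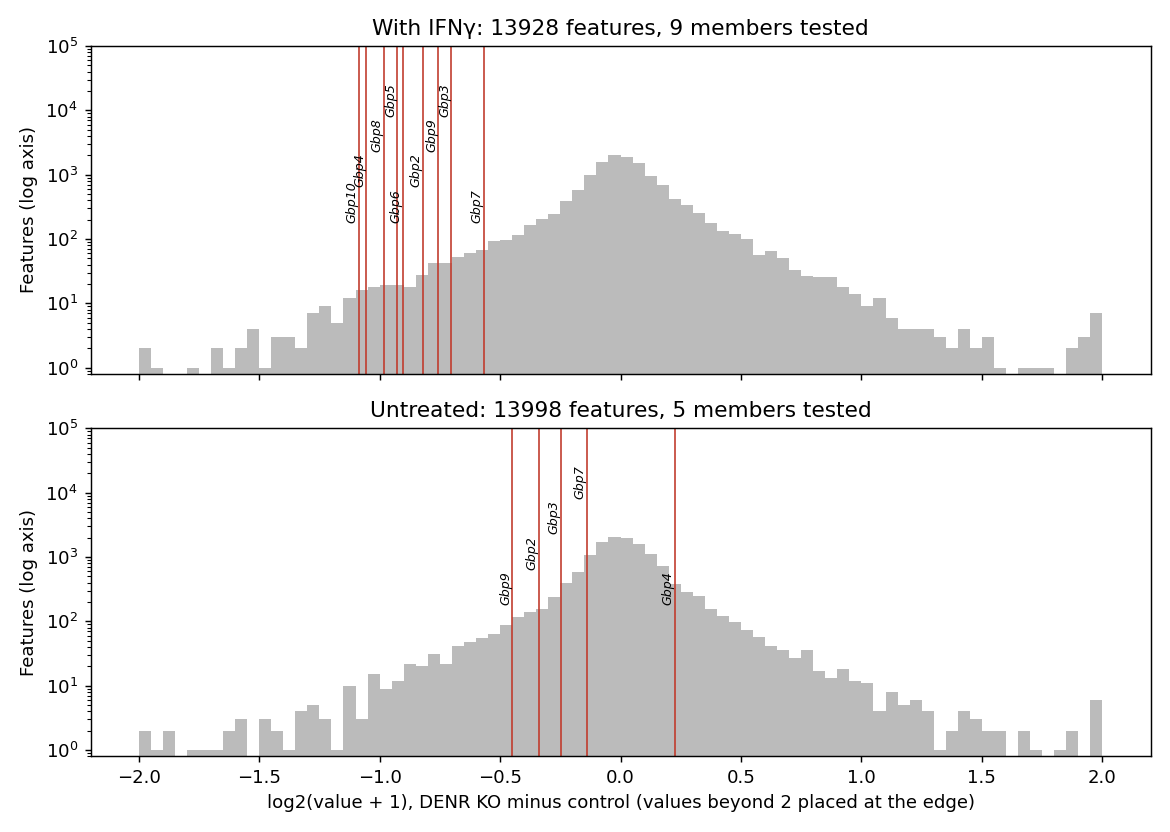
Number of features (log axis) by log2 difference, DENR KO minus control, with IFNγ (top, 13928 features) and untreated (bottom, 13998 features), with red lines at the tested guanylate-binding protein genes. With IFNγ the 9 lines stand in the lower tail from −1.09 to −0.57, and untreated the 5 lines stand between −0.45 and 0.22.

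The make-up of the family was described within samples, where the size factor cancels. With IFNγ the members together took 0.262% (95% Wilson interval 0.259 to 0.264) and 0.267% (0.265 to 0.269) of the reads in DENR KO cells, against the 0.449% and 0.462% of control cells. Gbp2 made up 48.0% and 49.4% of the family's reads in control and 48.1% and 47.6% in DENR KO cells with IFNγ. Its share of the family was thus much the same in both genotypes.

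Gbp4 and Gbp7, the members with the largest and smallest fall among the 7 most abundant, were set against each other after their values had been seen. There were 0.738 and 0.698 reads of Gbp4 for each read of Gbp7 in control and 0.520 and 0.504 in DENR KO cells. For Gbp2 there were 3.16 and 3.20 reads for each read of Gbp7 in control and 2.72 and 2.62 in DENR KO cells. The genotypes did not overlap in either ratio, and since the pairs were chosen on these values no test is given.

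Without IFNγ, no member was called different between DENR KO and control cells. Of the 8 members in the untreated table, 5 passed the filter on low values, and 0 were called by limma, edgeR or DESeq2. At an unadjusted p under 0.05 limma had 1 member (Gbp2), edgeR 1 and DESeq2 0. Over all features, limma had 524 lower and 771 higher at that p, edgeR 494 and 714 and DESeq2 205 and 320. Among the 13998 features tested, 0.0857% were called lower and 0.129% higher. The median log2 difference of the 5 tested members was −0.25, against 0.0019 over all features.

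Gbp2 had 169 and 176 normalized counts in untreated control and 133 and 139 in untreated DENR KO cells, with no overlap. Its log2 difference was −0.34 (95% interval −0.66 to −0.018, adjusted p = 0.52). In a fit of all 8 samples the adjusted p of this difference was 0.0063, and the size required for a call was still not reached. Gbp9 had 68.4 and 63.3 in control and 40.2 and 57.0 in DENR KO cells, again with no overlap, and a log2 difference of −0.45 (−0.97 to 0.065, adjusted p = 0.60). These were 2 of the 5 tested members with both DENR KO samples below both control samples, a pattern seen in 19.6% of all features tested.

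The other tested members overlapped. Gbp7 had 120 and 113 normalized counts in control and 116 and 96.3 in DENR KO cells (log2 difference −0.14, 95% interval −0.52 to 0.24, adjusted p = 0.87). Gbp3 had 33.2 and 40.8 in control and 28.4 and 33.4 in DENR KO cells (−0.25, −0.88 to 0.39, adjusted p = 0.86). Gbp4 had 17.1 and 14.3 in control and 15.7 and 21.6 in DENR KO cells (0.22, −0.65 to 1.10, adjusted p = 0.92). The 95% intervals of Gbp2, Gbp3, Gbp4 and Gbp9 still include −0.57, the smallest difference called with IFNγ.

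The remaining untreated members had a handful of reads and were under the filter of 10. Without that filter limma gave adjusted p of 0.86 for Gbp5, 0.97 for Gbp6 and 0.86 for Gbp8. Gbp5 had 14 and 6 reads in control and 3 and 10 in DENR KO cells. Gbp6 had 2 and 5 reads in control and 8 and 2 in DENR KO cells. Gbp8 had 3 and 2 reads in control and 6 and 5 in DENR KO cells, so both DENR KO samples were above both control samples. How many of all features show that order is not given here. Differences in these genes were not detectable at this depth.

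The ratio of IFNγ-treated to untreated cells was set out for the 8 members in both tables, from the share of reads on the gene over the 2 samples of a group. Since the tables were normalized separately, these ratios are a description. In control cells the ratio was 573 for Gbp4 (95% counting interval 403 to 843) and 568 for Gbp5 (367 to 930). It was 435 for Gbp6 (211 to 1082), 231 for Gbp2 (208 to 258) and 227 for Gbp3 (181 to 290). Gbp7 at 108 (94.5 to 123), Gbp8 at 72.6 (30.8 to 225) and Gbp9 at 66.4 (55.8 to 79.6) had the smallest ratios. Small ratios did not simply go with high untreated levels per kb. Gbp7 and Gbp9 were among the highest untreated and Gbp8 among the lowest, while Gbp2 led untreated.

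In DENR KO cells every one of these ratios was lower. Gbp5 kept the highest ratio at 480 (95% counting interval 281 to 902), from 13 untreated reads. Gbp4 was at 235 (171 to 332), Gbp6 at 170 (92.0 to 354), Gbp3 at 169 (132 to 221) and Gbp2 at 168 (149 to 190). Gbp7 was at 80.9 (70.7 to 92.9), Gbp9 at 54.0 (44.2 to 66.5) and Gbp8 at 17.3 (9.47 to 35.3). The counting intervals of control and DENR KO cells did not overlap for Gbp2, Gbp4 and Gbp7 and overlapped for the other 5. These ratios use the IFNγ-treated samples already described as lower. How many of all features show lower ratios or separate intervals was not computed, so neither pattern is read as particular to the members.

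**Figure D4:**
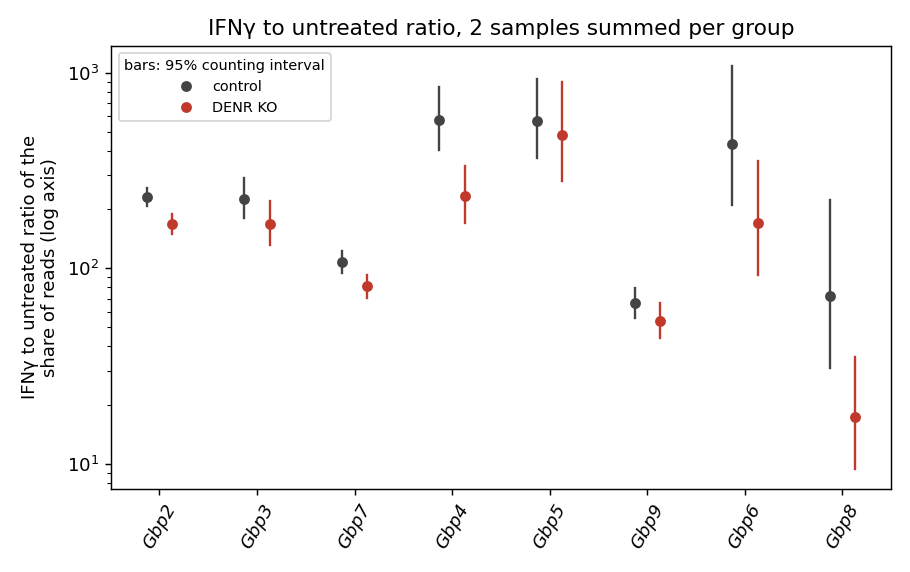
Ratio of the share of reads in IFNγ-treated to that in untreated cells (log axis) for the 8 guanylate-binding protein genes in both tables, in control (grey) and DENR KO (red) cells with the 2 samples of a group summed; lines are 95% counting intervals. Every red point is below its grey point, and the intervals are apart for Gbp2, Gbp4 and Gbp7; the share of all features with such patterns was not computed.

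Whether the DENR KO effect itself differed between IFNγ-treated and untreated cells was tested as an interaction over the 8 samples. The scale of either table cancels in it, except where values are so low that the added 1 matters, as for Gbp5, Gbp6 and Gbp8 untreated. Of 8 members tested 2 were called, Gbp4 and Gbp2. Gbp5, Gbp6 and Gbp8 passed the filter on low values only through their IFNγ-treated samples, so no summary over the members is given. Among the 13998 features tested, 0.429% were called lower and 0.0214% higher. For Gbp4 the difference was −1.28 on the log2 scale (SE 0.18, adjusted p = 3.4e-04) and for Gbp2 it was −0.48 (SE 0.087, adjusted p = 0.0057). With edgeR and DESeq2 on the recovered reads 0 members were called, with 4 at an unadjusted p under 0.05 in each against 5 with limma. The adjusted p of Gbp4 was then 0.077 and 0.075, and that of Gbp2 0.078 and 0.098. Over all features, limma had 454 lower and 350 higher at an unadjusted p under 0.05, edgeR 465 and 363 and DESeq2 294 and 165.

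The other interaction estimates did not pass. They were −0.43 for Gbp7 (SE 0.12, adjusted p = 0.16), −0.45 for Gbp3 (SE 0.15, adjusted p = 0.40) and −0.31 for Gbp9 (SE 0.17, adjusted p = 0.96). For Gbp8 the estimate was −1.85 (SE 0.48, adjusted p = 0.13), with 16 untreated reads in all. The 95% intervals of Gbp5 (−2.68 to 2.15) and Gbp6 (−3.41 to 1.09) span both directions, as their few untreated reads allow.

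The genes that carry the IFNγ signal to the Gbp promoters were read beside the members. With IFNγ, 7 of 16 receptor, kinase, transcription factor and feedback genes were called lower in DENR KO cells and 0 higher, with a list median of −0.32. Over all features tested, 1.03% were called lower and 0.517% higher. The 7 genes were the transcription factors Batf2 (log2 difference −0.89), Irf8 (−0.75), Stat3 (−0.54), Stat2 (−0.52) and Irf1 (−0.52) and the feedback inhibitors Socs1 (−0.75) and Socs3 (−0.62). Irf1 had 17208 and 16991 normalized counts in control and 11900 and 12009 in DENR KO cells with IFNγ, with no overlap (SE 0.048, adjusted p = 1.0e-07). Untreated, 0 of 15 tested were called by limma or edgeR, and 0 of 16 by DESeq2, with 0 at an unadjusted p under 0.05 in each.

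The genes at the head of the pathway differed less. Jak2 had 2068 and 2163 normalized counts in control and 1706 and 1738 in DENR KO cells with IFNγ, with no overlap. Its log2 difference of −0.30 (SE 0.064, adjusted p = 0.0064) passed on p but was smaller than the size required. Jak1 (0.013, adjusted p = 0.96) and the receptor chains Ifngr1 (−0.073, adjusted p = 0.74) and Ifngr2 (−0.11, adjusted p = 0.59) did not pass. In the interaction limma called 6 of 16 genes of this list lower, against 0.429% of all features tested. With edgeR and DESeq2 5 were called in each. Irf1 was among the 6 at −0.58 (SE 0.078, adjusted p = 1.8e-04, limma). Irf8 was also among them but passed the filter on low values only through its IFNγ-treated samples. It had 3 and 2 reads in untreated control and 11 and 10 in untreated DENR KO cells.

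Of 11 other GTPases that interferon induces, 8 were tested with IFNγ, with a median of −0.88 over the 8. In DENR KO cells 7 of these were called lower and 0 higher, against 1.03% and 0.517% of all features tested. Among them were Iigp1, an immunity-related GTPase of pathogen vacuoles (−1.07, SE 0.052, adjusted p = 2.7e-12), Gm12250 (−1.12, SE 0.068, adjusted p = 9.3e-11) and Tgtp2 (−1.22, SE 0.24, adjusted p = 0.0029). Irgm2 (−0.43, SE 0.053, adjusted p = 7.9e-06) passed on p but not on size. The other 3, Gbp2b, Mx1 and Mx2, were under the filter. Gbp2b had 1 read in each control and 0 in each DENR KO sample, Mx1 had mean normalized counts of 7.62 and 7.84, and Mx2 had 9.19 and 8.83. Untreated, 0 of 3 were called by limma, 0 of 3 by edgeR and 0 of 8 by DESeq2, with 0 at an unadjusted p under 0.05. In the interaction 1 of 6 was called lower, Igtp, against 0.429% of all features tested. Gm12250, Iigp1 and Tgtp1 entered that test only through their IFNγ-treated samples.

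Genes that act on or after guanylate-binding proteins mostly did not pass. Of 6 enzymes that attach and process isoprenyl tails, which Gbp2 and Gbp5 carry, 0 were called with IFNγ (list median −0.030). Of 12 autophagy conjugation factors that guide guanylate-binding proteins to vacuoles, 0 were called (list median −0.048). In both lists limma, edgeR and DESeq2 each gave 0 calls and 0 genes at an unadjusted p under 0.05 with IFNγ. Untreated, no gene of either list was called, and limma and edgeR had 1 gene higher at an unadjusted p under 0.05 in each. In the interaction both lists had 0 calls and 0 genes at that p.

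With IFNγ 1.03% of all features tested were called lower and 0.517% higher. Of 8 tested inflammasome and pyroptosis genes, 2 were called lower with IFNγ and 0 higher (list median −0.23). These were Casp4, the mouse caspase-11 that senses bacterial lipopolysaccharide (−0.69, SE 0.11, adjusted p = 4.0e-04), and Zbp1, a sensor of nucleic acids (−0.68, SE 0.080, adjusted p = 3.5e-06). Untreated, 0 of 6 were called by limma, 0 of 7 by edgeR and 0 of 9 by DESeq2, with 0 at an unadjusted p under 0.05. In the interaction 0 of 8 were called, with 2 at an unadjusted p under 0.05 in limma and edgeR and 1 in DESeq2. Aim2 and Casp1 entered that test only through their IFNγ-treated samples.

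The profile of each gene over the 8 samples, as log2(value + 1) centred on its own mean, was compared with the median profile of 8 members. Among 10319 other named features with a mean of at least 100, the nearest by root mean square distance were Igtp (0.234), Irgm2 (0.292), Cxcl10 (0.326), Apol6 (0.415) and Ciita (0.509). Within the family Gbp2 (0.115) and Gbp3 (0.130) were closest to that median and Gbp8 (1.40) was farthest. Since the IFNγ step is by far the larger one in these profiles, the distance mostly measures its size. Gbp5, Gbp6 and Gbp8 entered the median profile only through their IFNγ-treated samples. Igtp, Irgm2, Apol6 and Ciita reached the mean of 100 in the same way, so this list is a description. Cxcl10, a chemokine that draws T cells, had means of 40975 in control and 17549 in DENR KO cells with IFNγ, and of 222 and 217 untreated.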

How the data were processed

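mRNA of MC38 cells was selected with poly-T beads and sequenced as 150 bp paired ends. The submitters' processing notes name HISAT2 2.0.5, StringTie 1.3.3b, featureCounts 1.5.0-p3 and DESeq2 1.20.0, without their roles. The authors deposited 2 tables, of IFNγ-treated and of untreated samples, whose values are a normalized signal, the reads divided by a size factor of each sample. Dividing by the value of 1 read gave whole numbers for 100% of values (tolerance 0.01 read). The authors' fold changes and p-values in these tables were not used. Within each table, log2(value + 1) of features with a mean of at least 10 was compared with limma 3.58.1 (trend, robust; R 4.3.3) and Benjamini-Hochberg adjustment. Tests were first tested on simulated data. Alternatives included edgeR 4.0.16 and DESeq2 1.42.0 on the recovered reads, other pseudocounts and filters, a replicate block and leaving out each sample. Members, gene lists and tests were chosen with earlier results of these data known. The genes named were the members, Denr, list genes that passed the test with the largest changes or that carry the IFNγ signal, and the 5 nearest profiles. A gene of the signal list is not reported here. Strand handling is not given in the sources used here.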

Additional observations from a re-analysis of the deposited data

Results flagged for a closer look

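The DENR KO effect differed between IFNγ-treated and untreated cells for 2 members by the limma interaction. For Gbp4 the difference was −1.28 on the log2 scale, with both DENR KO samples below both control samples with IFNγ and overlapping groups untreated. For Gbp2 it was −0.48, with both DENR KO samples below both control samples in each table. Neither passed with edgeR or DESeq2, where the adjusted p ran from 0.075 to 0.098.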

How the results depend on the processing

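The 9 members called lower with IFNγ became 2 (Gbp4 and Gbp10) when a log2 difference beyond 1 was required. They became 5 in a fit of all 8 samples, in which Gbp5, Gbp6 and Gbp8 kept their differences with adjusted p of 0.67, 0.66 and 0.14, and Gbp10 has no row. Under every other alternative, including each sample left out, the count was 9. Untreated, the count was 0 under all alternatives run, although in the fit of all 8 samples Gbp2 had an adjusted p of 0.0063 at a log2 difference of −0.34. The 2 interaction calls became 0 with edgeR, 0 with DESeq2 and 1 (Gbp4) with a log2 difference beyond 1. Leaving out each sample in turn gave 1 to 3 calls. Gbp2 was lost without DENR KO IFNγ replicate 1 (adjusted p = 0.054) or control IFNγ replicate 2 (0.094). Gbp7 was gained without DENR KO untreated replicate 2 (0.026), Gbp8 without control untreated replicate 1 (0.037) and Gbp3 without control untreated replicate 2 (0.031). The Gbp5 interaction then ranged from −0.99 to 0.47, turning to 0.47 without DENR KO untreated replicate 2 and 0.28 without control untreated replicate 2. In these fits a lone sample is assumed to vary like the other groups. Under alternatives, 112 values of the IFNγ to untreated log2 ratio stayed within the spread between replicates and 16 moved by more, 14 of them with a pseudocount of 10 and 2, for Gbp8, with none, an alternative chosen after seeing the data.

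With the replicate number as a block, 9 members were called with IFNγ, 0 untreated and 2 in the interaction, and no member's call changed. Over all features the block gave 175 lower and 110 higher calls with IFNγ (143 and 72 without), 28 and 38 untreated (12 and 18) and 89 and 13 in the interaction (60 and 3). Deviations of same-numbered samples correlated at 0.22 between genotypes with IFNγ, −0.017 between genotypes untreated and 0.23 between treatments in control cells. Not every pair of groups was above 0.1 and the labels name no shared batch, so the numbers were not taken to pair the samples. Over all features, a log2 difference beyond 1 left 31 lower and 13 higher calls with IFNγ, 2 and 6 untreated and 11 and 2 in the interaction. Without a size requirement there were 314 and 251 with IFNγ and 21 and 60 untreated. DESeq2 called 113 and 34 with IFNγ and 5 and 12 untreated, edgeR 7 and 13 untreated, and the fit of all 8 samples 90 and 68 with IFNγ. Leaving out a sample gave up to 126 higher calls with IFNγ, up to 30 lower and 42 higher untreated, and 35 to 81 lower and 1 to 12 higher in the interaction. Depth limits Gbp5, Gbp6 and Gbp8 untreated and Gbp11 with IFNγ.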
